A study of Mus musculus with 20 samples.

Results

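The 45 genes described here encode the machinery of mitosis and cell division, and they were followed in mouse bone marrow-derived macrophages with and without knockdown of Brg1 (gene Smarca4), the motor subunit with which BAF complexes move nucleosomes. They were chosen by symbol from 17787 genes in the deposited table and fall into 8 roles: 8 cyclins and mitotic kinases, 3 subunits of the chromosomal passenger complex, 5 genes of the spindle checkpoint and the anaphase-promoting complex (APC/C), 7 of the centromere and kinetochore, 7 kinesins, 4 of spindle assembly, 7 of condensin and chromosome structure, and 4 of cytokinesis. All 45 passed the filter on low values, as did 12061 genes in all. The cells came from the marrow of C57BL/6J males, were separated over Ficoll, and grew for 7 days with 30% L929 supernatant, a source of macrophage growth factor. They were transfected with 50 nM of control siRNA or of siRNA against Brg1 for 48 h, with 1 siRNA product in each arm. During the last 6 h the cells received vehicle (0.1% ethanol and 0.1% D-PBS), lipopolysaccharide (LPS, a bacterial cell wall component sensed by macrophages, 100 ng/ml) or that LPS together with dexamethasone (Dex) at 1 µM, a glucocorticoid drug. The 20 libraries comprise, for each siRNA, 3 of vehicle, 3 of LPS and 4 of Dex+LPS. The submitters' design names 3 replicates per group. Nothing states whether these are different animals or cultures, so a p-value here speaks only for the spread among these libraries, which may be technical.

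As background, entry into mitosis is driven by cyclins A and B with the kinase Cdk1, and chromosomes are then packed by condensin, caught by kinetochores, sorted on a spindle of microtubules and kinesins, and parted by cytokinesis. The genes for these proteins are transcribed together late in the cell cycle, through promoters that often carry CCAAT boxes, bound by NF-Y, and a cell cycle genes homology region (CHR), bound by complexes built on the MuvB core. Macrophages grown from marrow divide in the presence of macrophage growth factor, and LPS and glucocorticoids are both known to act on that division.

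RefSeq promoters (GRCm38.p6, 250 bases before to 50 after the start) matched 38 of the 45 genes, and both elements were searched on both strands, CCAAT with those letters and CHR as TTTGAA or as the palindrome TTCGAA. A CHR match was present in 30 of the 38 (78.9%) against 21.7% of 27025 promoters and 16.8% of the 9369 tested genes that had one. CCAAT was present in 29 (76.3%) against 41.1% of all and 43.1% of tested promoters, and both in 26 (68.4%) against 9.65% and 8.27%. Of the 30 with a CHR, 27 had one that began within 50 bases of the start. A match is a run of letters and not a measured binding site. One CHR match for each of 7 roles, and those of 2 more kinesins whose values stand out below, are shown with 10 bases on each side on the strand of the gene, the match in capitals. They lie at chr10:69352912-69352937 (minus strand) for Cdk1, chr2:127831830-127831855 (minus) for Bub1, chr5:30666892-30666917 (plus) for Cenpa, chr19:37376353-37376378 (plus) for Kif11, chr9:122951052-122951077 (plus) for Kif15, chr9:61946782-61946807 (minus) for Kif23, chr2:172370523-172370548 (minus) for Aurka, chr11:99024197-99024222 (minus) for Top2a and chr9:22389170-22389195 (minus) for Anln.
Cdk1: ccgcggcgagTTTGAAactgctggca
Bub1: gcgcggggaaTTCGAAtcgccggcgg
Cenpa: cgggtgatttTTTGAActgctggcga
Kif11: gtctccatttTTCAAAattgaggcgc
Kif15: gggcgccaaaTTCAAAtctgcggcca
Kif23: gattggcctgTTTGAAatgcgccggg
Aurka: aaggagaaccTTTGAAttgtaacggc
Top2a: tagataaaggTTCAAAtgaaactagg
Anln: ggcgctgaaaTTCAAAttttgaacgg

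The CCAAT boxes lie just upstream, and the 120 bases before the start are shown for 4 of the genes that fell with the knockdown, Ccnb2 (chr9:70421555-70421674, minus strand), Bub1 (chr2:127831860-127831979, minus), Aurka (chr2:172370571-172370690, minus) and Top2a (chr11:99024190-99024309, minus), with CCAAT or its reverse complement ATTGG, and CHR matches, in capitals. These stretches hold 3, 2, 2 and 3 CCAAT boxes. That of Top2a also holds 2 CHR matches. Not all genes that fell are alike in this stretch: that of Kif4 (not shown) holds 1 CCAAT box. That of Anln (not shown) holds 0 CCAAT boxes and 0 CHR matches.
Ccnb2: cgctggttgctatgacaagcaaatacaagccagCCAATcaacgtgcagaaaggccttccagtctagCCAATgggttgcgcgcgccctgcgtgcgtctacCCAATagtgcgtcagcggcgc
Bub1: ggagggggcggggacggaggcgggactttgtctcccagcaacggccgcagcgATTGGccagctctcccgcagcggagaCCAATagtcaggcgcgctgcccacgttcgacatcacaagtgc
Aurka: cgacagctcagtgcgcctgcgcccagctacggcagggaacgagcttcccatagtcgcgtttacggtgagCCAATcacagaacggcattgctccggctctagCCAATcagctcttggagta
Top2a: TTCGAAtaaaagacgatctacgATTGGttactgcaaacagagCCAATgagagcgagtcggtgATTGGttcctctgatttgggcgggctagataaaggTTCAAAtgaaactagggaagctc

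Library depth was 13.69 to 18.71 M reads, and Smarca4 itself read 340 to 621 normalized counts in libraries with Brg1 siRNA against 1476 to 2990 with control siRNA. Values below are counts divided by the authors' size factor of each library. The median gene of the list rested on 310 reads in a control vehicle library, 46 with LPS and 114 with Dex+LPS, and on 177, 22 and 46 with Brg1 siRNA. Plain library totals in place of the size factors shift the median gene by -0.57 and -0.67 (log2) in the LPS responses, by 0.29 and 0.33 in the Dex responses and by -0.13 and -0.10 in the knockdown in LPS and in Dex+LPS. Calls over all genes, lower and higher, then go from 4464 and 4341 to 6850 and 2434 for LPS with control siRNA, and from 3041 and 2827 to 1647 and 5269 for Dex. In the knockdown they go from 1298 and 1132 to 1596 and 969 in vehicle. They go from 1906 and 2089 to 2917 and 1332 in LPS and from 1842 and 2289 to 2847 and 1653 in Dex+LPS. With Brg1 siRNA they go from 4511 and 4275 to 7328 and 2219 for LPS, from 2777 and 2575 to 1232 and 5388 for Dex, and from 609 and 771 to 921 and 567 for the difference of the knockdown between LPS and vehicle. The list's own calls with plain totals were 32 lower and 0 higher for the knockdown in vehicle, 38 and 0 in LPS, 40 and 0 in Dex+LPS, 43 and 1 for LPS and 1 and 42 for Dex with control siRNA, and 44 and 1 and 1 and 38 with Brg1 siRNA.

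The labels number the libraries in a lower and a higher series. The higher one holds 4 libraries, control LPS replicate 3, Brg1 LPS replicate 2 and replicate 4 of both Dex+LPS groups, and none of vehicle. Deviations from the group means correlated at 0.406 between its 2 Dex+LPS libraries and at 0.207 between its 2 LPS libraries. Between the LPS and Dex+LPS libraries of that series they correlated at 0.26 for control and 0.239 for Brg1 siRNA. Without these 4 libraries 34 of the 45 genes were called lower with the knockdown in vehicle, 29 in LPS and 36 in Dex+LPS, and 0 higher. Over all genes 1518 were then lower and 1281 higher in vehicle, 1614 and 1779 in LPS and 1787 and 2176 in Dex+LPS. Of the 45 genes LPS then lowered 43 and raised 2 in control cells and 40 and 2 in knockdown cells. Dex lowered 2 and raised 35 in control cells, and 1 and 32 in knockdown cells. With the series as a term in the fit, an alternative chosen after seeing the data, the knockdown gave 32, 35 and 40 lower and 0 higher. Among all genes it gave 1597 lower and 1383 higher in vehicle, 2216 and 2373 in LPS and 2143 and 2578 in Dex+LPS. The values with all 20 libraries follow.

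Most of the list was lower with the knockdown and lower with LPS, and lowest with both. Taking each gene's control vehicle mean as 100%, the median gene stood at 54.0% with Brg1 siRNA and vehicle, at 21.1% with control siRNA and LPS, and at 10.5% with Brg1 siRNA and LPS. With Dex+LPS it stood at 46.3% with control siRNA and at 18.2% with Brg1 siRNA. Single libraries differed little within a group: the median gene was at 95.7% to 103% in the control vehicle libraries, 19.7% to 22.3% with LPS and 41.6% to 49.2% with Dex+LPS, and at 54.2% to 55.0%, 10.4% to 11.7% and 17.1% to 21.3% with Brg1 siRNA. The groups did not overlap in this median, except control siRNA with LPS and Brg1 siRNA with Dex+LPS. In bulk RNA, fewer dividing cells and less of these transcripts per cell cannot be told apart.

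**Figure D1:**
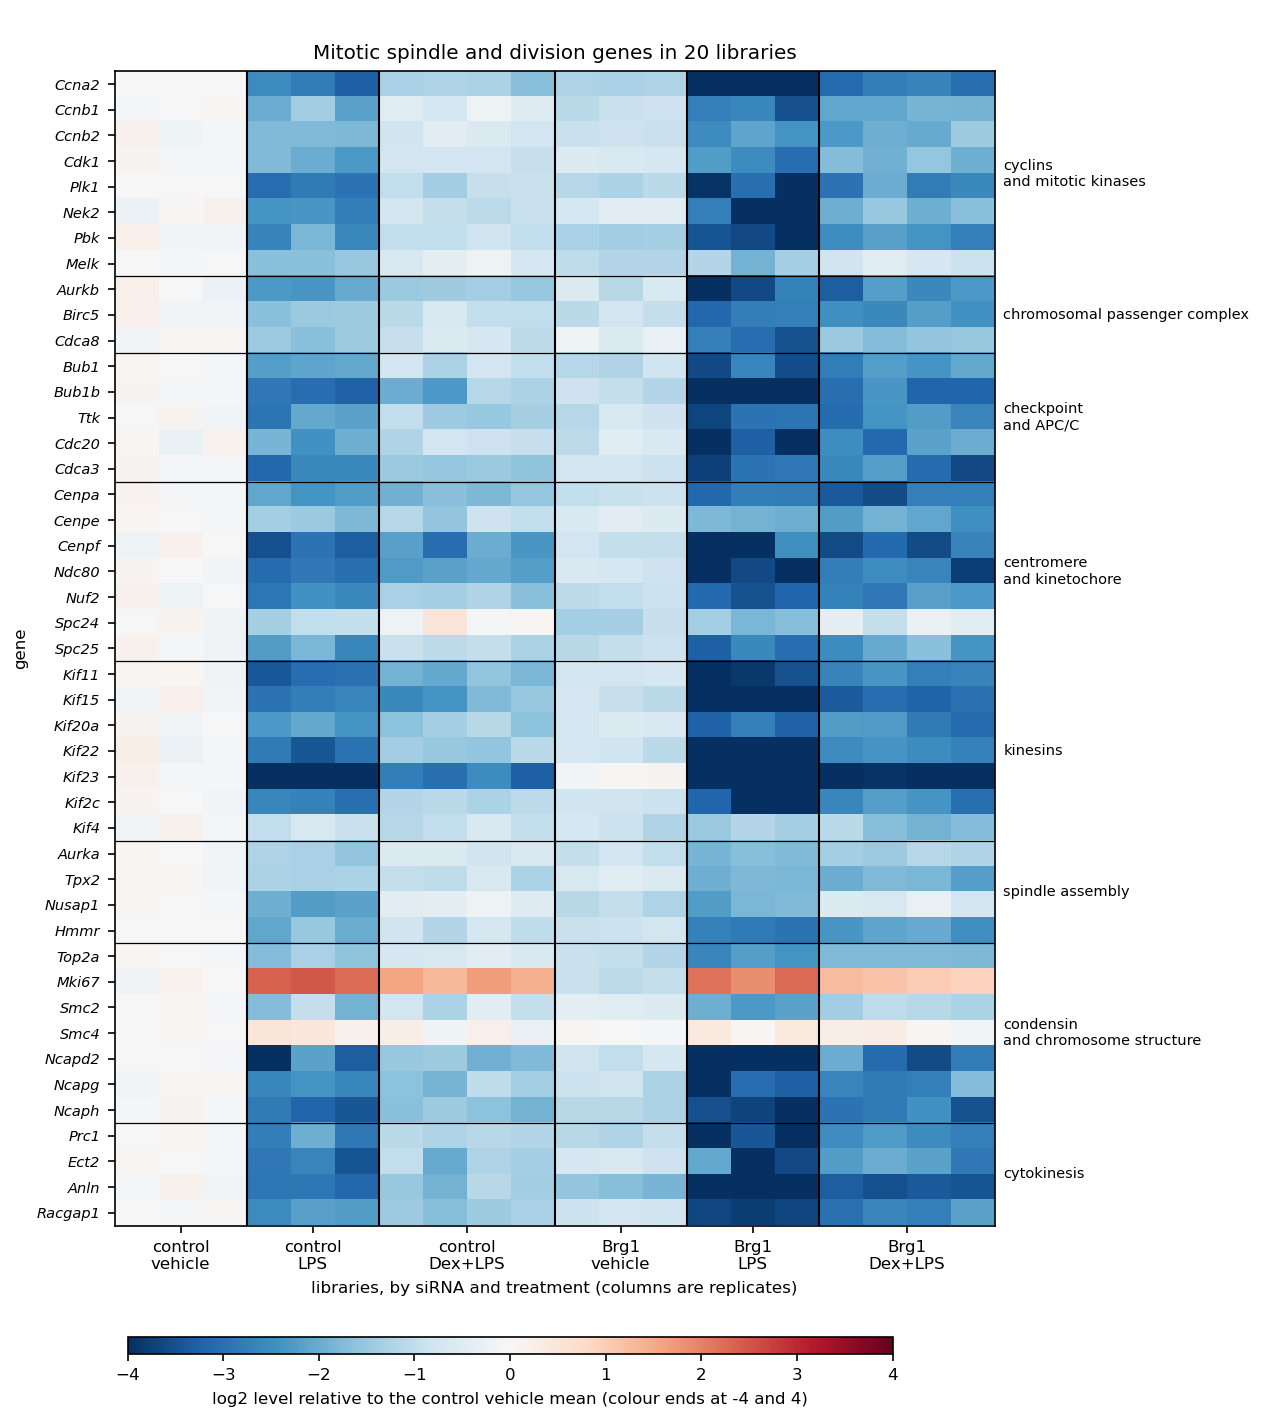
Level of each of the 45 genes (rows, by role) in each of the 20 libraries (columns, by siRNA and treatment), as log2 of the normalized count plus 1 over the control vehicle mean plus 1, with blue below and red above that mean. Most rows are palest in control vehicle and darkest in Brg1 siRNA with LPS, while Mki67 is red in every library with LPS and Smc4 stays near white.

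In vehicle, the knockdown asks which transcripts of unstimulated macrophages depend on Brg1. Of the 45 genes 31 were called lower and 0 higher by limma at an adjusted p under 0.05, where 10.8% of all genes tested were lower and 9.39% higher. The median log2 fold change was -0.88, against 0.01 over all tested genes, and 44 of 45 values were below 0. For 43 genes every Brg1 library lay below every control library, which held for 23.2% of all genes (22.9% lay above). The exceptions were Kif23 and Smc4.

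The cyclins and mitotic kinases were lower in 7 of 8, with the sole exception of Nek2, a centrosome kinase. Pbk, a kinase of dividing cells (chromosome 14, 65805837 to 65817822, GRCm38), had the largest change of this role, from 153, 124 and 125 normalized counts to 54.2, 50.0 and 52.9. The groups lay far apart, with a log2 fold change of -1.33 (SE 0.265, limma adjusted p = 0.00129). Of its 31-base words 13.0% occur in other genes, so its counts are uncertain, as are those of Ccnb1 (27.7%), Cdc20 (25.5%) and Plk1 (14.8%). Ccna2, cyclin A2, went from 543, 534 and 524 to 227, 218 and 224. Its Brg1 libraries differed from each other by only a few counts, and all were under the lowest control library (log2 fold change -1.25, SE 0.168, limma adjusted p = 2.82e-05).

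Of the passenger complex, which corrects faulty attachments of chromosomes, Birc5 (survivin) was called lower, and Aurkb and Cdca8 were not. Birc5 (chromosome 11, 117849251 to 117855743) went from 284, 232 and 231 to 117, 145 and 129, which do not overlap, with a log2 fold change of -0.93 (SE 0.152, limma adjusted p = 0.000216). The checkpoint genes were lower in 3 of 5. Bub1, the kinase that gathers checkpoint proteins at unattached kinetochores (chromosome 2, 127801122 to 127831865), went from 220, 210 and 197 to 93.3, 89.9 and 119, which do not overlap. Its log2 fold change was -1.06 (SE 0.231, limma adjusted p = 0.00278).

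At the kinetochore 5 of 7 genes fell. Spc24, a subunit of the NDC80 complex that grips microtubules (chromosome 9, 21755442 to 21760303), went from 46.9, 50.5 and 41.9 to 17.5, 18.0 and 23.9 (log2 fold change -1.20, SE 0.232, limma adjusted p = 0.001). Cenpa, the histone H3 variant that marks centromeres, fell by 0.91 on the log2 scale. Cenpf was called in none of the 3 knockdown comparisons, although its vehicle libraries did not overlap (198, 260 and 227 against 135, 117 and 118, log2 fold change -0.88, SE 0.483, limma adjusted p = 0.235). Its libraries with Brg1 siRNA and LPS read 6.23, 6.23 and 40.9, a wide spread, and all 6 groups share 1 estimate of the error.

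The kinesins were lower in 5 of 7. Kif4, a chromosome-bound motor (chromosome X, 100625737 to 100727214), went from 133, 162 and 137 to 88.5, 78.2 and 62.2 (log2 fold change -0.92, SE 0.199, limma adjusted p = 0.00272). All 4 spindle assembly genes fell. Nusap1, which bundles spindle microtubules (chromosome 2, 119618298 to 119651244), went from 315, 297 and 294 to 139, 157 and 129 (log2 fold change -1.09, SE 0.139, limma adjusted p = 1.67e-05). Aurka, the centrosome kinase, fell by 0.90 on the log2 scale. No Brg1 library of either gene reached a control library.

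Of the condensin and chromosome structure genes 3 of 7 fell. Ncaph, a condensin I subunit (chromosome 2, 127103809 to 127133954), went from 229, 257 and 226 to 109, 109 and 98.1 (log2 fold change -1.16, SE 0.252, limma adjusted p = 0.00267). Top2a, the topoisomerase that untangles sister chromatids, went from 1399, 1363 and 1310 to 733, 697 and 597 (log2 fold change -1.01, SE 0.109, limma adjusted p = 2.51e-06). Smc4, a core condensin subunit (chromosome 3, 69004738 to 69034623), was not called: it read 1235, 1312 and 1239 against 1296, 1267 and 1206, with a log2 fold change of -0.01 and a 95% interval of -0.30 to 0.28.

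Cytokinesis held the largest change of the list. Anln (anillin, the scaffold of the contractile ring, chromosome 9, 22332012 to 22389188) dropped from 384, 451 and 375 to 134, 124 and 111. It was lower in every Brg1 library by a wide margin, with a log2 fold change of -1.71 (SE 0.168, limma adjusted p = 8.35e-07), and stood at 30.4% of its control level. Prc1, which bundles the central spindle, and Racgap1, a subunit of the centralspindlin complex, fell by 1.09 and 0.79 on the log2 scale. Ect2, the exchange factor that sets the cleavage plane, did not pass (log2 fold change -0.71, limma adjusted p = 0.24).

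With LPS, 34 of the 45 genes were lower with Brg1 siRNA and 0 higher, against 15.8% lower and 17.3% higher among all genes tested, and the median log2 fold change was -0.90. Sample ranges were apart for 30 genes, against 22.0% of all genes (24.1% upwards). With Dex+LPS 40 were lower and 0 higher, against 15.3% and 19.0%, with a median of -1.14 and ranges apart for 37 (13.1% of all genes, and 16.1% upwards). The median over all tested genes was 0.01 in both. Of the 45 genes 25 were called lower in all 3 treatments, 12 in 2 of them, 6 in 1 and 2 in none (Cenpf and Smc4). The same split was not made over all tested genes, so how far it sets the list apart is not known.

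Of the 25 genes, 11 kept all 3 calls under every alternative run: Anln, Birc5, Bub1, Ccna2, Ccnb1, Hmmr, Pbk, Prc1, Racgap1, Top2a and Tpx2. The other 14 lost at least 1 call, among them Plk1, lost in 6 of 15 alternatives in vehicle (limma adjusted p = 0.0263, at most 0.0798) and in 7 of 15 in LPS (0.0287, at most 0.183). Ttk, a checkpoint kinase, lost its call in 8 and 7 of them, Cdk1 in 2 and 2, and Ccnb2 in 0 and 4. Anln again stood out, with 54.1, 53.2 and 44.9 against 9.97, 12.5 and 10.2 in LPS (log2 fold change -2.12, SE 0.168, limma adjusted p = 3.44e-08). In Dex+LPS it read 140, 108, 185 and 154 against 40.0, 34.6, 38.5 and 36.0 (log2 fold change -1.92, SE 0.145, limma adjusted p = 1.33e-08). Its groups did not overlap in either treatment. Birc5 went from 77.8, 89.1 and 92.0 to 27.4, 36.1 and 36.4 in LPS, and from 118, 158, 125 and 126 to 44.6, 41.3, 53.4 and 45.2 in Dex+LPS. Its log2 fold changes were -1.35 (SE 0.152) and -1.49 (SE 0.132), with limma adjusted p = 2.19e-06 and 9.42e-08. Ect2 was called in Dex+LPS close to the threshold, with limma adjusted p = 0.0499 (0.00967 to 0.139 over 17 alternatives, 10 of which lost the call).

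**Figure D2:**
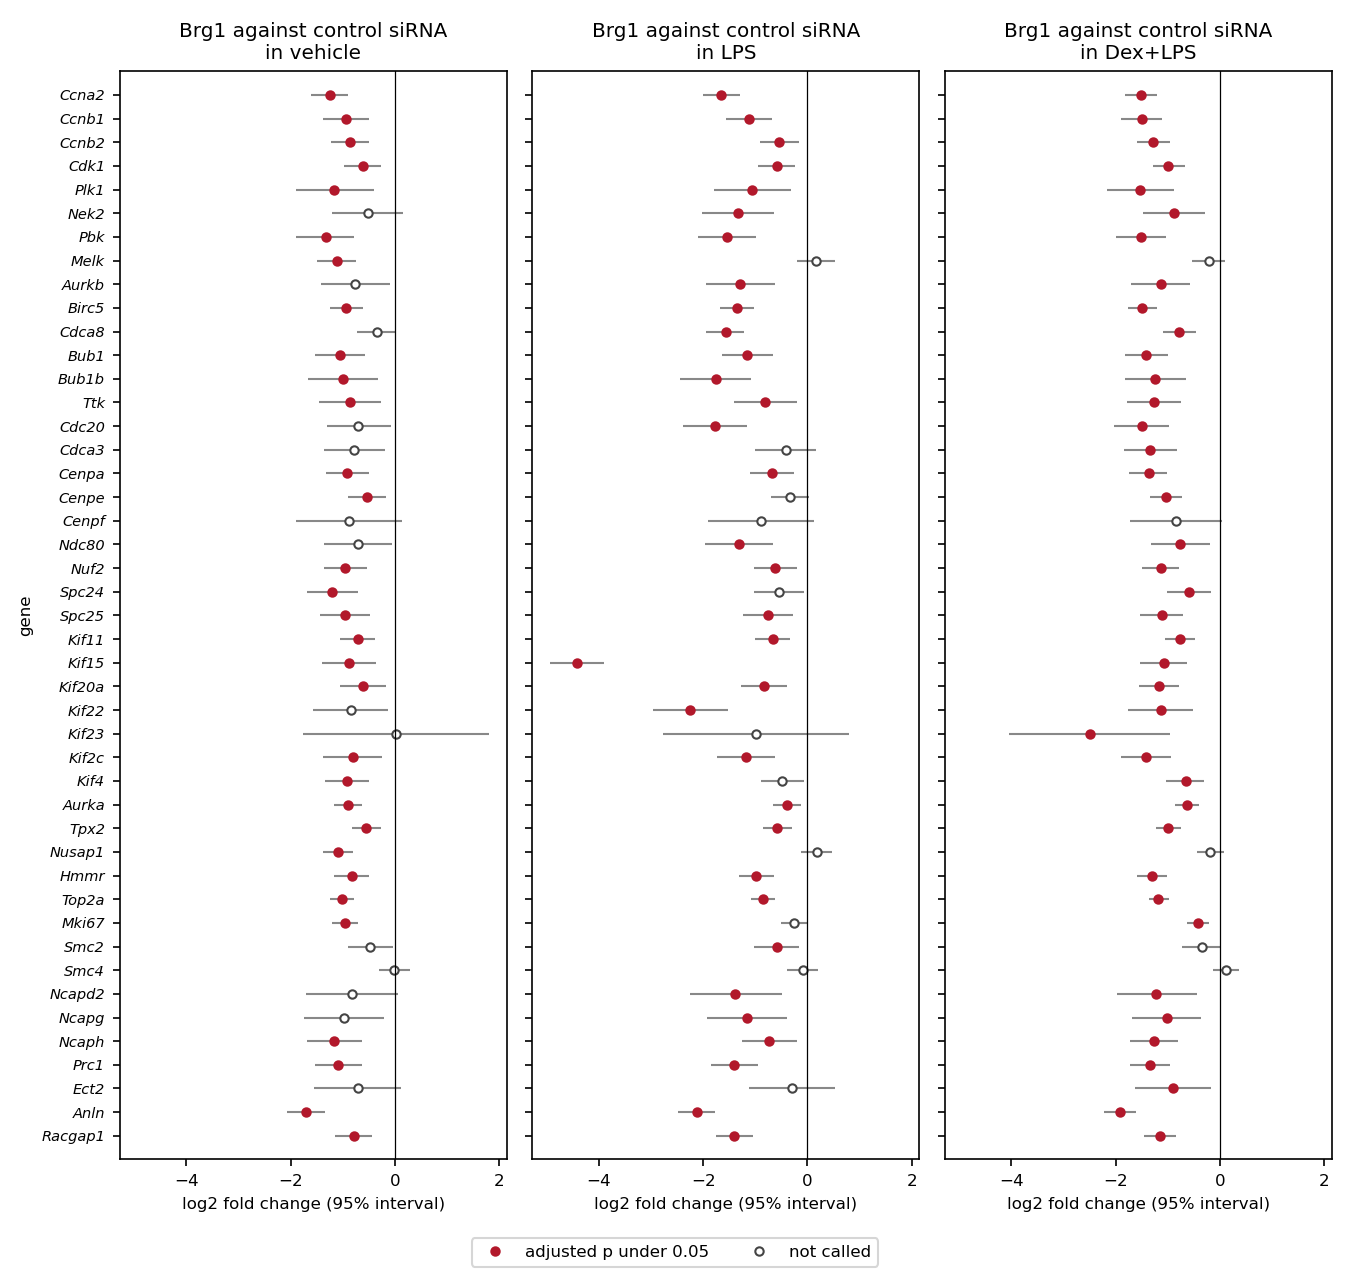
Log2 fold change of Brg1 against control siRNA for each gene (rows) in vehicle, LPS and Dex+LPS (panels), with 95% intervals, filled where the limma adjusted p was under 0.05 and open where it was not. Nearly all points lie left of 0 in each panel, and 31, 34 and 40 are filled. The fitted position of Kif15 in LPS depends on the pseudocount, since its Brg1 libraries hold 0 reads.

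LPS itself asks how the inflammatory stimulus changes the division program. With control siRNA 43 genes fell and 2 rose, so that every gene was called, against 37.0% lower and 36.0% higher among all genes, and the groups did not overlap for any of the 45 (39.3% of all genes lay apart downwards and 38.3% upwards). The median log2 fold change was -2.24 against -0.04 over all genes. After 6 h 42 genes were under 50% of their vehicle mean and 21 under 20%, counts that were not made over all genes. With Brg1 siRNA 40 fell and 1 rose, against 37.4% and 35.4%, with a median of -2.45 against -0.05. There Melk, Spc24, Kif4 and Smc4 did not pass. The knockdown comparisons and these responses share their libraries.

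The kinesins ran deepest, with a median of -2.78. Kif23, the motor of centralspindlin (chromosome 9, 61915905 to 61946774), dropped from 491, 414 and 416 in vehicle to 18.0, 26.6 and 10.7 with LPS, 4.19% of its vehicle mean. The LPS libraries lay far below every vehicle library (log2 fold change -4.59, SE 0.846, limma adjusted p = 9.41e-05). Kif11, the motor that pushes spindle poles apart, went from 567, 563 and 477 to 50.7, 63.6 and 66.3 (log2 fold change -3.14, SE 0.159, limma adjusted p = 3.13e-12). The cyclins and kinases had a median of -2.18, the kinetochore genes -2.22 and the cytokinesis genes -2.74. Smaller falls were seen in Kif4 (133, 162 and 137 to 72.2, 91.4 and 77.0, log2 fold change -0.84) and Spc24 (46.9, 50.5 and 41.9 to 18.0, 23.1 and 23.5, log2 fold change -1.08).

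Mki67, which coats mitotic chromosomes and is a common marker of dividing cells (chromosome 7, 135689784 to 135716361), went the other way. Its control libraries read 1218, 1482 and 1333 in vehicle and 6922, 7603 and 6271 with LPS, and its Brg1 libraries 722, 652 and 701 and then 6106, 4902 and 6528. LPS libraries were all above vehicle libraries for either siRNA. The log2 fold changes were 2.37 (SE 0.116, limma adjusted p = 1.97e-12) and 3.07 (SE 0.116, limma adjusted p = 3.89e-14). Smc4 was the other gene called higher with control siRNA (1235, 1312 and 1239 against 1755, 1723 and 1414, log2 fold change 0.36, limma adjusted p = 0.0248), but with plain library totals its sign turned (log2 fold change -0.22, limma adjusted p = 0.138, with a range of 9.11e-05 to 0.138 over 15 alternatives). The call was also lost without control vehicle replicate 1 (0.0605) or 3 (0.0590), and without control LPS replicate 1 (0.0901) or 2 (0.0795). Mki67 overlaps Gm45240 on the opposite strand by their whole spans, introns included, and shared exons were not looked for. The counting is not stated to use strand, so reads from any shared exons could not be told apart. The same holds for Ccna2, Plk1, Nek2, Cdc20, Cdca8, Kif20a, Kif22, Kif4, Nusap1, Ncapg and Prc1, which also overlap a gene on the other strand, 12 members in all.

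Dex added to LPS was compared with LPS alone, which asks what the glucocorticoid changes in stimulated cells. These comparisons share the LPS libraries with the LPS responses. With control siRNA 40 of the 45 genes rose and 2 fell, against 23.4% and 25.2% of all genes, and the median log2 fold change was 1.16 against -0.01. Ranges were apart upwards for 39 genes, against 22.1% (24.7% downwards). With Brg1 siRNA 33 rose and 1 fell, against 21.3% and 23.0%, and the median was 0.93 against -0.02.

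All 8 cyclins and kinases rose with control siRNA. Plk1, the polo kinase (chromosome 7, 122159439 to 122169873), had the largest rise of the list, from 16.9, 19.7 and 18.2 to 74.3, 55.6, 77.3 and 79.6 (log2 fold change 1.91, SE 0.331, limma adjusted p = 0.000113). These values still lie under its vehicle libraries, which read 148, 145 and 149. Nusap1 rose from 76.7, 63.6 and 67.4 to 220, 235, 262 and 213 (log2 fold change 1.74, SE 0.13, limma adjusted p = 3.43e-09), 77.1% of its vehicle level. Mki67 fell with Dex for either siRNA, from 6922, 7603 and 6271 to 4034, 3403, 4300 and 3608 with control siRNA (log2 fold change -0.86, SE 0.108, limma adjusted p = 3.39e-06). With Brg1 siRNA it fell from 6106, 4902 and 6528 to 3245, 2936, 2743 and 2541 (log2 fold change -1.02). Its course over the 3 treatments was thus opposite to that of the list at both steps. The other fall, Smc4 with control siRNA (log2 fold change -0.35, limma adjusted p = 0.0325), was lost in 7 of 16 alternatives, and its groups overlap.

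Whether the knockdown differed in size between treatments was tested directly. Between LPS and vehicle 2 genes differed downwards and 3 upwards, against 5.05% and 6.39% of all genes, and between Dex+LPS and LPS 0 and 1, against 1.22% and 2.75%. Both pairs of counts are near the shares over all genes and do not set the list apart. For the other 40 and 44 genes the test called no difference, which does not show that the knockdown was equal: the medians of the differences were -0.10 and -0.18, and for Cdk1, for example, the 95% intervals were -0.47 to 0.54 and -0.87 to 0.07.

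Kif15, a kinesin that backs up Kif11 (chromosome 9, 122951046 to 123018733), was listed at 0 in all 3 libraries with Brg1 siRNA and LPS. It read 18.0, 20.8 and 22.5 with control siRNA and LPS, 90.9, 76.6 and 68.2 with Brg1 siRNA and vehicle, and 13.7, 16.7, 15.0 and 17.5 with Brg1 siRNA and Dex+LPS. With a floor of 3 reads over the group it was at least 16.9-fold lower than with control siRNA, 65.1-fold lower than in vehicle and 13.0-fold lower than with Dex+LPS. The fitted differences (-3.53 between LPS and vehicle, limma adjusted p = 2.35e-06, and 3.33 between Dex+LPS and LPS, limma adjusted p = 9.35e-06) depend on the pseudocount in size, and both calls held in all 21 and 23 alternatives. In vehicle and in Dex+LPS its knockdown was of ordinary size for the list, at -0.88 and -1.08.

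Cdca8 (borealin, which anchors the passenger complex, chromosome 4, 124918465 to 124939311) also fell more in LPS. Its vehicle libraries read 199, 220 and 223 against 187, 142 and 177, and its LPS libraries 77.8, 65.9 and 79.2 against 31.2, 24.9 and 18.2. On the log2 scale the knockdown gave -0.35 in vehicle (not called, limma adjusted p = 0.181) and -1.57 in LPS, a difference of -1.22 (SE 0.246, limma adjusted p = 0.00263). In Dex+LPS it was -0.78.

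Nusap1, Melk and Mki67 showed the converse, a knockdown effect in vehicle that was smaller in LPS. For Nusap1 the libraries read 76.7, 63.6 and 67.4 against 63.6, 84.7 and 88.7 in LPS, which overlap, and the difference from vehicle was 1.27 (SE 0.197, limma adjusted p = 0.00029). Melk, a kinase of dividing cells (chromosome 4, 44300876 to 44364675), read 131, 125 and 130 against 63.0, 56.3 and 57.1 in vehicle, but 39.5, 39.3 and 43.9 against 56.1, 33.6 and 51.1 in LPS, a difference of 1.28 (SE 0.248, limma adjusted p = 0.00191). In Dex+LPS the sample ranges of both genes overlapped too, with log2 fold changes of -0.19 for Nusap1 and -0.22 for Melk, neither called. With the knockdown, LPS thus lowered Nusap1 by 0.84 on the log2 scale where it lowered it by 2.11 with control siRNA. Mki67 fell by 0.95 on the log2 scale in vehicle, did not pass in LPS (-0.25, limma adjusted p = 0.107) and fell by 0.42 in Dex+LPS, a difference between LPS and vehicle of 0.70 (limma adjusted p = 0.00813).

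Kif23 differed from the list in vehicle, where 491, 414 and 416 stood against 407, 459 and 477, a log2 fold change of 0.03. The libraries overlap, but its interval of -1.76 to 1.81 is the widest of the list. Its Dex+LPS libraries with Brg1 siRNA read 14.9, 27.9, 0 and 25.9, of which 1 is listed at 0. In Dex+LPS it was called lower against control values of 64.3, 53.4, 76.3 and 45.1 (log2 fold change -2.50, SE 0.733, limma adjusted p = 0.013). The library at 0 enlarges that fold change on the log scale. The group means were 59.8 with control siRNA and 17.1 with Brg1 siRNA, which lie less far apart. The differences between treatments were not called (limma adjusted p = 0.667 and 0.573).

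**Figure D3:**
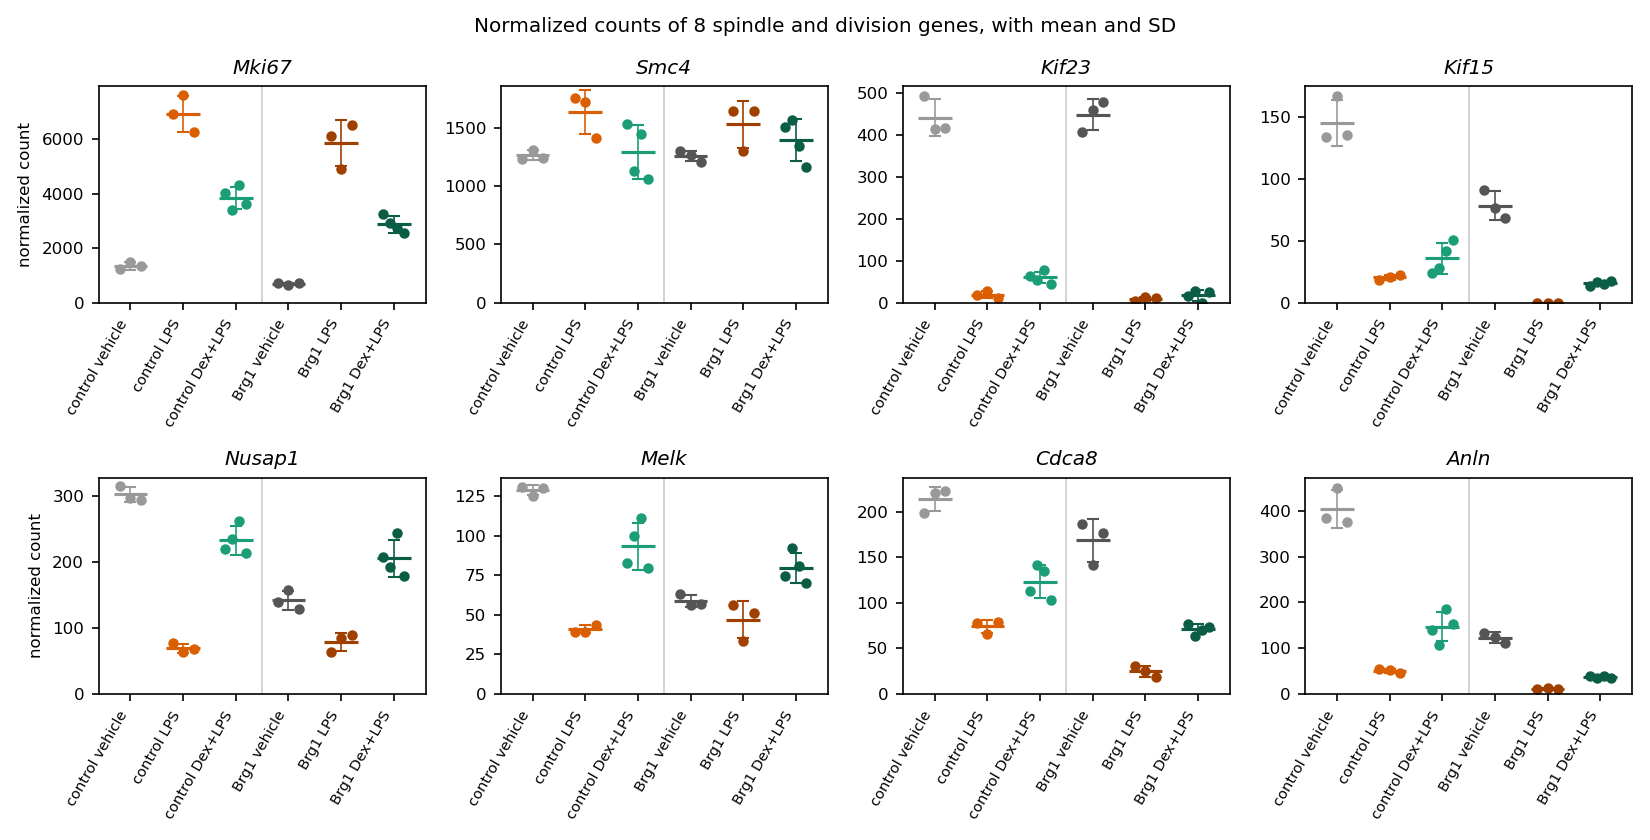
Normalized counts of 8 genes in every library (points), with the mean (line) and SD (bars) of each group of 3 or 4 libraries, control siRNA on the left and Brg1 siRNA on the right of each panel, axes from 0. Mki67 is highest with LPS, Smc4 is nearly level, Kif15 lies at 0 in Brg1 siRNA with LPS, and Nusap1 and Melk with LPS or Dex+LPS are at like levels for both siRNAs.

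Lists of related genes place these values. Of 59 other mitotic genes tested, the knockdown lowered 22 and raised 0 in vehicle, 22 and 2 in LPS and 39 and 1 in Dex+LPS, with medians of -0.77, -0.70 and -1.02. Stmn1 (stathmin, a microtubule destabiliser) went from 1393 ± 173 (SD, n = 3) to 650 ± 18.2 (SD, n = 3) in vehicle, Kpna2 (importin alpha) from 1189 ± 72.3 to 741 ± 51.1, Tuba1b (an alpha tubulin) from 5853 ± 375 to 3913 ± 12.3 and Ube2c (an APC/C ubiquitin-conjugating enzyme) from 225 ± 16.6 to 113 ± 10.3. Plk4, the kinase of centriole duplication, was the one that rose in both stimulated states, from 209 ± 38.1 to 425 ± 66.1 in LPS and from 162 ± 26.8 (SD, n = 4) to 278 ± 41.7 (SD, n = 4) in Dex+LPS. Cks2, a small partner of Cdk1, rose in LPS alone among the 3 treatments, from 136 ± 12.8 to 223 ± 10.7. In vehicle it was called lower, from 146 ± 18.8 to 98.4 ± 22.0 (log2 fold change -0.58, limma adjusted p = 0.00786). With control siRNA 43 of the 59 fell and 6 rose with LPS, and 31 rose and 5 fell with Dex.

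Of the DNA replication genes 20 of 36 were lower and 0 higher in vehicle, with a median of -0.67. Fewer were called in LPS (12 and 3, median -0.32) and Dex+LPS (16 and 2, median -0.52). Rrm2, the regulated subunit of ribonucleotide reductase, went from 403 ± 50.0 to 131 ± 15.9 in vehicle, Rrm1 from 925 ± 25.7 to 529 ± 10.6, and Mcm6 and Mcm4, subunits of the replicative helicase, from 1317 ± 82.5 to 831 ± 70.4 and from 495 ± 51.9 to 318 ± 16.8. Pcna, the sliding clamp, was called lower in vehicle (log2 fold change -0.26, limma adjusted p = 0.0449). In LPS it rose by 0.26 on the log2 scale (limma adjusted p = 0.0315), as did Pola2 (0.38) and Rfc3 (0.63). Pola2 (0.32) and Rfc3 (0.44) also rose in Dex+LPS. With LPS and control siRNA 31 fell and 0 rose, Rrm2 to 19.4 ± 1.78, and with Dex 18 rose and 3 fell. The difference between the lists was not tested.

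Among 15 APC/C subunits, which stay in the cell outside mitosis, 1 was lower and 0 higher with the knockdown in vehicle and 2 and 0 in each other treatment, with medians of -0.02, 0.08 and -0.01. Cdc16 was the called subunit in vehicle, from 475 ± 7.53 to 283 ± 11.1. Cohesin genes gave 2 and 0 of 10 in vehicle, Smc3 (670 ± 46.9 to 483 ± 52.4) and Rad21 (2063 ± 26.9 to 1625 ± 44.6). They gave 1 and 0 in LPS and 1 and 2 in Dex+LPS, with medians of -0.02, 0.05 and 0.16 over the 3 treatments. Smc3 was the one lower in LPS and in Dex+LPS, where Rad21 was not called (log2 fold changes 0.04 and -0.05). Transcription regulators of the program gave 1 and 0 of 14 in vehicle and 2 and 3 in LPS and in Dex+LPS. The one in vehicle was Foxm1, the forkhead factor of mitotic genes, from 220 ± 23.6 to 108 ± 17.7 (limma adjusted p = 0.0285). It fell with LPS to 35.9 ± 6.06 and stood at 56.5 ± 12.3 with Brg1 siRNA and LPS, which was not called different (limma adjusted p = 0.144). In Dex+LPS it was lower again, from 84.8 ± 29.4 to 45.2 ± 18.1 (log2 fold change -0.94, limma adjusted p = 0.0128). Nfyc, a subunit of the CCAAT-binding factor NF-Y, was lower in LPS (464 ± 61.8 to 369 ± 14.2) and in Dex+LPS (460 ± 36.3 to 387 ± 34.0), and Rbbp4, a MuvB subunit, in LPS (2338 ± 20.2 to 2058 ± 69.5). The regulators called higher are named here after their values were seen. Rbl1 (p107), a pocket protein that represses cell cycle genes, rose in LPS from 1190 ± 37.4 to 1756 ± 258 and in Dex+LPS from 318 ± 80.3 to 694 ± 92.0 (log2 fold changes 0.55 and 1.15, limma adjusted p = 0.0193 and 8.54e-06). Its relative Rbl2 (p130) rose in LPS, from 362 ± 7.98 to 444 ± 20.6. Of the NF-Y subunits, Nfya rose in LPS (2493 ± 89.0 to 2950 ± 52.6) and Dex+LPS (2012 ± 212 to 2559 ± 109), and Nfyb in Dex+LPS (383 ± 43.9 to 533 ± 95.7).

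CDK inhibitors, which hold cells out of division, had 2 lower and 1 higher of 5 tested in vehicle, 0 and 2 in LPS and 0 and 2 in Dex+LPS. Cdkn1c (p57) was higher with Brg1 siRNA in every treatment, at 1493 ± 127 against 2106 ± 113 in vehicle, 567 ± 23.9 against 1249 ± 174 in LPS and 529 ± 88.0 against 1013 ± 79.6 in Dex+LPS. Cdkn1b (p27) rose with it in LPS (432 ± 135 to 587 ± 80.4) and Dex+LPS (688 ± 41.0 to 1159 ± 77.6). Cdkn1a (p21) was slightly lower with the knockdown in vehicle (2212 ± 62.6 against 1909 ± 89.4, log2 fold change -0.21, limma adjusted p = 0.00529) and not called in the other treatments. It rose with LPS to 57889 ± 1884 and stood at 19883 ± 1092 with Dex+LPS in control cells, a course opposite to that of the spindle genes at both steps. Cdkn2b (p15) was lower with the knockdown in vehicle, at 15.0 ± 3.03 against 6.98 ± 2.09 (log2 fold change -1.02, limma adjusted p = 0.000489). It was not called in the other treatments. With LPS it rose to 184 ± 3.86 in control cells.

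**Figure D4:**
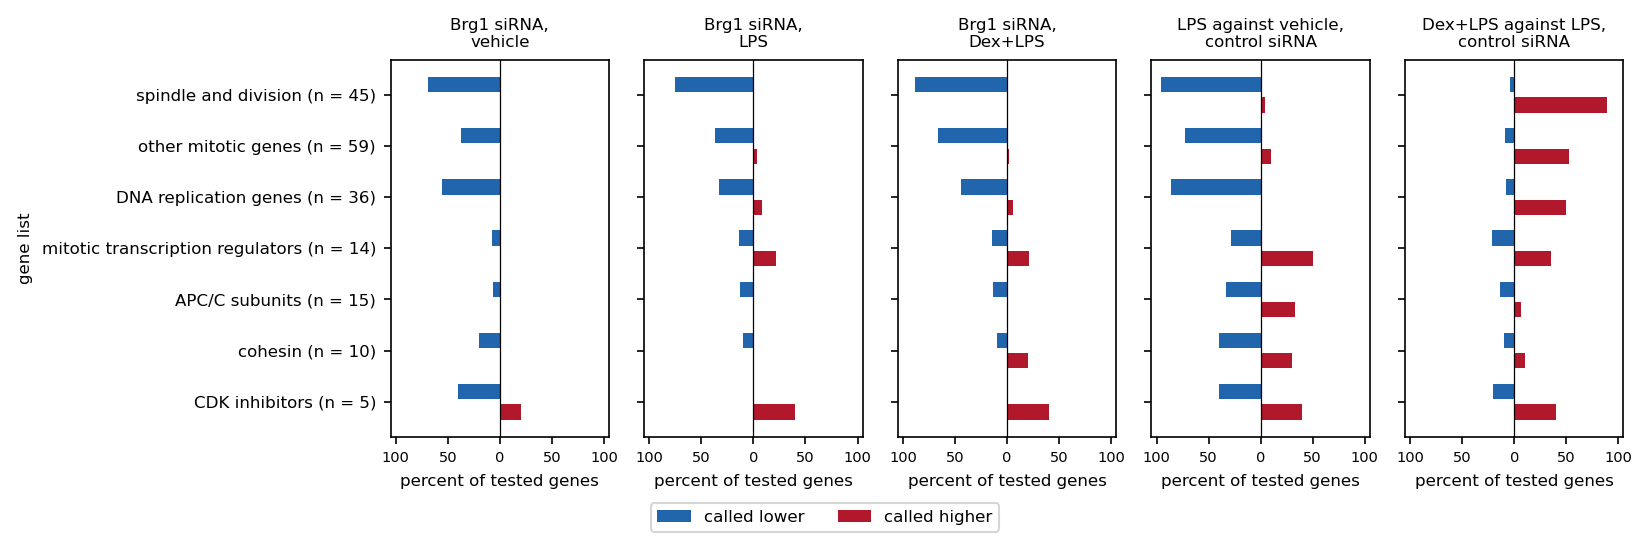
Percent of the tested genes of each list (rows, with the number tested) called lower (blue, to the left of 0) and higher (red, to the right) by limma in 5 comparisons (panels). The blue bars of the spindle and division genes in the knockdown panels stand for 31, 34 and 40 of 45, and those of the APC/C subunits for 1, 2 and 2 of 15.

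The promoter classes were set beside the responses as a description. The 26 genes with both CHR and CCAAT had a median log2 fold change of -0.86 for the knockdown in vehicle, -0.88 in LPS and -1.17 in Dex+LPS, and 16, 20 and 24 were called lower. The 5 with neither (Nuf2, Nusap1, Ncaph, Melk and Birc5) had medians of -1.09, -0.62 and -1.13, with 5, 3 and 3 called. In the LPS response with control siRNA the medians were -2.27 and -2.11, and in the Dex response 1.14 and 1.26. The 4 genes with CHR alone had knockdown medians of -0.84, -1.72 and -1.25 in vehicle, LPS and Dex+LPS. The 3 with CCAAT alone had -0.54, -1.12 and -1.03. Nusap1 and Melk, whose knockdown effect was not seen in LPS, are in the class with neither. The other 3 genes of that class, Nuf2, Ncaph and Birc5, were called lower in LPS. Of the other genes that differed, Mki67 and Cdca8 hold both elements and Kif15 a CHR alone. A link of class to response was not tested. The 7 genes Tpx2, Aurkb, Kif20a, Pbk, Smc4, Ccna2 and Spc24 have no promoter in the table.

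The cells bore macrophage markers throughout: the 10 genes of that list summed to 311499 to 538605 normalized counts in all libraries, and Csf1r alone read at least 20820. That sum was lowest in control vehicle (311499 to 321508) and highest in Brg1 LPS (524696 to 538605). Its genes did not all move that way. Between these groups Adgre1 rose from 29192 to 30369 up to 73087 to 74712. Cd68 fell from 21178 to 22031 down to 15959 to 17066, and Csf1r from 28914 to 29420 down to 22776 to 26041. The 9 genes of neutrophils and their progenitors summed to 23.4 to 43.7 in control vehicle, 67.4 to 92.6 in control LPS and 48.9 to 57.4 in control Dex+LPS, and to 52.4 to 70.2, 87.5 to 118 and 51.5 to 73.6 with Brg1 siRNA. Ngp (17.6 to 25.7 in control vehicle, 43.2 to 67.3 in Brg1 LPS) and Camp (0 to 1.75, and 36.4 to 43.6) carried most of that difference, while Elane, Mpo and Prtn3 read at most 2.49. Of 7 fibroblast genes 3 were in the table, and nearly all of their sum with LPS was Pdgfrb. They summed to 1.66 to 2.62 in control vehicle, 958 to 1027 in control LPS and 605 to 818 in control Dex+LPS, and to 1.56 to 2.56, 860 to 1051 and 499 to 586 with Brg1 siRNA. A list of 6 B cell genes, 4 of them in the table, differed between the groups too, summing to 630 to 703 in control vehicle, 53.2 to 70.8 in Brg1 vehicle, 71.0 to 109 in control LPS and 94.6 to 149 in control Dex+LPS, and to 11.2 to 22.7 and 3.69 to 10.3 in Brg1 LPS and Brg1 Dex+LPS. Most of it was Ighm in the control groups (606 to 677 in control vehicle) and in Brg1 vehicle (43.1 to 54.6), but Ighm read only 4.99 to 8.72 in Brg1 LPS and 0.923 to 3.43 in Brg1 Dex+LPS. Cd79a was at 0 in 5 of the 6 groups and reached 2.14 in control Dex+LPS. Stem and progenitor genes (5 of 5 in the table) summed to 114 to 170 in control vehicle, 128 to 143 in Brg1 vehicle, 121 to 134 in control LPS, 38.7 to 49.8 in control Dex+LPS, 197 to 226 in Brg1 LPS and 43.5 to 93.7 in Brg1 Dex+LPS. Outside control Dex+LPS most of these sums was Kit (96.3 to 147 in control vehicle, 68.5 to 87.9 in control LPS, 139 to 167 in Brg1 LPS) with Cd34 (12.4 to 17.5, 29.3 to 48.6 and 43.6 to 48.9). In Dex+LPS, Kit read 0 to 8.55 in control cells and 11.4 to 53.5 in knockdown cells. Flt3 was at 0 in all vehicle libraries. Whether any of these values come from other cells was not tested.

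In the authors' deposited table, whose p-values come from their own fit, the list had 38 genes lower and 0 higher for the knockdown in vehicle, 29 and 0 in LPS and 40 and 0 in Dex+LPS. Over all genes with an adjusted p in the authors' deposited table, 11.3% were lower and 10.1% higher in vehicle, 14.7% and 16.6% in LPS and 14.8% and 17.9% in Dex+LPS. For LPS the authors' deposited table had 43 lower and 2 higher in control cells, where 32.4% and 31.6% of all genes were called, and 40 and 1 in knockdown cells (30.7% and 29.7%). For Dex the authors' deposited table had 2 lower and 41 higher in control cells (21.8% and 19.5% of all genes) and 1 and 31 in knockdown cells (20.5% and 18.1%).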

How the data were processed

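The series was a gene table of 20 RNA-seq libraries. Its columns are signal values, counts that the authors divided by a size factor for each library, per the file headers. Salmon 1.4.0, DESeq, DESeq2, R 4.1.0 and the builds mm10 and GRCm38.p6 are named, per the submitters' processing notes, with no role given. The deposited table also holds the authors' log2 fold changes, their standard errors (a score column here) and their p-values, used only for the counts credited to them. Of the values above 0, 99.95% were whole reads within 0.01 after removal of the factor, and 100% within 0.06, so depth could be recovered (13.69 to 18.71 M reads).

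Genes that reached 10 normalized counts in 3 or more libraries (12061 of 17787) were tested on log2(normalized count + 1) with limma 3.58.1 (trend, R 4.3.3), with all 6 groups in 1 fit, two-sided, Benjamini-Hochberg adjustment over all tested genes and a threshold of 0.05. Fold changes are on that scale, which in general understates changes of low genes. A single library at 0 among higher ones can instead enlarge a change, as for Kif23 in Dex+LPS. Alternatives were pseudocounts of 0.5 and 5, no filter, edgeR 4.0.16 and DESeq2 1.42.0 on the recovered reads, plain library totals, a replicate block, left-out libraries and, chosen after seeing the data, the series of label numbers as a term. The fit was tested on simulated data. The members and lists were chosen with earlier results of these data known. Any of the 45 genes could be named; from other lists, up to 4 genes with the smallest adjusted p in vehicle and those called against their list were taken. Loci are from GENCODE M21 and promoters from RefSeq. A sum of 3 reads over a group served as the floor where all its libraries were at 0.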

Additional observations from a re-analysis of the deposited data

Results flagged for a closer look

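The knockdown effect of 5 genes differed between LPS and vehicle by the test of the difference itself, 2 downwards and 3 upwards of 45. Over all genes tested 5.05% and 6.39% did, so these counts are near the general share and do not set the list apart. On the log2 scale the difference was 1.28 for Melk, 1.27 for Nusap1, 0.70 for Mki67, -1.22 for Cdca8 and -3.53 for Kif15. For Kif15 it also differed between Dex+LPS and LPS, by 3.33, and both Kif15 values depend on the pseudocount because its Brg1 LPS libraries hold 0 reads.

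In groups of 4, 1 library stood apart from the other 3 in 5 of 90 groups examined, and chance alone gives about 1 in 20. Cdk1 was at 278 normalized counts in control Dex+LPS replicate 4, the lowest of a group that reached 310. Pbk was at 77.3 in control Dex+LPS replicate 3, where the lowest was 66.6. Bub1b was at 68.0 in Brg1 Dex+LPS replicate 2 (lowest 36.9), Kif11 at 107 in the same library (lowest 80.1), and Ncapg at 48.0 in Brg1 Dex+LPS replicate 4 (lowest 22.3).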

How the results depend on the processing

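The direction in which most called genes of the list lay was the same under every alternative run in the 7 knockdown and treatment comparisons. With 1 library left out, in vehicle 23 to 25 of the 45 genes passed for the knockdown, 24 to 32 in LPS and 37 to 39 in Dex+LPS. Among all genes 1000 to 1063 were then lower and 827 to 899 higher in vehicle. In LPS these were 1559 to 1721 and 1756 to 1890, and in Dex+LPS 1594 to 1831 and 2000 to 2247. The difference of the knockdown between Dex+LPS and LPS rests on few calls: 1 gene, or 1 to 3 with 1 library left out (3 without control Dex+LPS replicate 2, 2 without Brg1 LPS replicate 1 or 2 or Brg1 Dex+LPS replicate 4), and 2 without the 4 libraries of the higher label numbers. Over all genes the same difference called 479, against 731 with DESeq2, 299 without those 4 libraries and 730 with the label number series as a term. Smc4 in the LPS response with control siRNA reversed to -0.22 with plain library totals. The cause was not tested. Nothing states that equal replicate numbers pair the samples. Deviations of same-numbered libraries correlated at -0.166 to 0.406, the highest between replicate 4 of both Dex+LPS groups. With the replicate block 30, 34 and 40 genes of the list were lower with Brg1 siRNA, in the order vehicle, LPS, Dex+LPS. Among all genes 1411, 2018 and 1951 were lower and 1235, 2204 and 2396 higher, in that order. In LPS the median gene rested on 22 reads in a Brg1 library.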
